A study of Mus musculus with 18 samples.

Results

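The chemokines and chemokine receptors of mouse donor T cells were described here, 7 days after haematopoietic stem cell transplantation. Members were the genes whose symbol begins with Ccl, Cxcl, Ccr or Cxcr followed by a number and at most 1 letter, plus Xcl1, Xcr1, Cx3cl1 and Cx3cr1. The rule uses symbols only, but it was chosen with earlier results of these data known. It found 58 of the 46073 rows of the gene table, 40 for ligands and 18 for receptors, under 57 symbols because Ccl27a has 2 rows. A filter on low counts, applied to all genes, kept 18447 genes and 32 members, of which 17 were receptors and 15 were ligands.

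Chemokines are small secreted proteins that guide migrating leukocytes, and they act through receptors that couple to inhibitory G proteins. Naive T cells carry CCR7, whose ligands draw them into lymph nodes and the T cell zones of the spleen, whereas activated T cells exchange it for receptors of inflamed tissue such as CXCR3, CXCR6, CCR2 and CX3CR1. T cells also secrete chemokines themselves, among them CCL3, CCL4 and CCL5, which recruit further T cells and myeloid cells. In allogeneic transplantation, donor T cells that recognise recipient tissue leave lymphoid organs for gut, liver and skin, and receptors of this family are known for their part in that traffic.

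RNA of donor T cells was measured in 12 libraries that form 4 groups of 3, with WT or Wapl KO T cells taken from syngeneic or allogeneic recipients. Wapl releases the ring complex cohesin from chromosomes. Donors were C57BL/6 mice bearing the leukocyte marker CD45.2, described, like the recipients, as female and 8 to 12 weeks old. Syngeneic recipients were of the strain B6.SJL-Ptprca Pepcb/BoyJ and had 9.5 Gy of irradiation. Allogeneic recipients were of the strain CByJ.SJL(B6)-Ptprca/J, on a BALB/c background, and had 8 Gy. All recipients, controls included, received T cell depleted marrow cells together with splenic T cells, and the number of T cells also differed between the transplant types, so that strain, irradiation and T cell dose cannot be told apart from transplant type. The labels do not give the Cre line, the deleted exons or the sex of the KO donors. The cell type field of the syngeneic KO samples names the allogeneic recipient strain, although their transplant type is syngeneic, and they were grouped by transplant type. Live cells positive for CD3 and CD45.2 were sorted from spleen, and each library pooled 2 to 4 mice. The labels do not say whether the pools came from separate transplant runs, so p-values measure only the spread between these libraries.

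Total counts ran from 45965659 to 89007100 per library, and the members took 0.0794 to 0.163% of them. Wapl stood at 170.1 to 211 CPM (counts scaled to a common library size) in WT and 127 to 139 in KO after syngeneic transplantation, and 156 to 169 in WT and 124 to 151 in KO after allogeneic transplantation. On the first principal component the syngeneic KO libraries (−54.7 to −29.9) lay on the side of syngeneic WT (−89.7 to −75.0), and the allogeneic libraries lay between 49.6 and 83.9. Replicate 1 of syngeneic KO stood apart on the second component, at 99.9. Transcripts of the Y chromosome (Kdm5d, Uty, Ddx3y and Eif2s3y) summed to 0.733 to 1.75 CPM in WT and 31.4 to 138 CPM in KO libraries, so donor sex cannot be told apart from genotype. All 12 T cell markers were detected, with sums of 3309 to 6231 CPM. Markers of other cells were also present, and their sums are given beside the results they move with. In bulk RNA, fewer cells of a type and less RNA per cell cannot be told apart.

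Promoter sequences are shown for 5 of the 10 members with a matched promoter that were higher in allogeneic than in syngeneic WT libraries. Their upstream letters can be set side by side. The 5 were picked by name, and each is shown with a motif that it holds, so the marked letters follow from the choice. Members of the 10 without these letters are not shown. Each is 300 bases of RefSeq sequence (GRCm38.p6), from 250 before to 50 after the annotated start, written from 5′ to 3′ on the strand of the gene. They lie at chr9:120068247-120068546 on the minus strand for Cx3cr1, chr9:123806227-123806526 on the plus strand for Cxcr6, chrX:101734098-101734397 on the minus strand for Cxcr3, chr11:83649329-83649628 on the minus strand for Ccl3 and chr11:82179763-82180062 on the minus strand for Ccl1. Capitals mark the RUNX letters TGTGGT or their reverse strand form ACCACA in the first 4, and the NFAT letters TGGAAA or TTTCCA in Ccl1.
Cx3cr1: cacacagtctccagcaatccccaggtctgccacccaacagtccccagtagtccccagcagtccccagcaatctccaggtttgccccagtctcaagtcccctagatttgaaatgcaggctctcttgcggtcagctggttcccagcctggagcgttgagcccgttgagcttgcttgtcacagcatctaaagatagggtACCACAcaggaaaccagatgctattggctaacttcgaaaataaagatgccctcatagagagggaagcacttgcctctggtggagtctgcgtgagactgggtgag
Cxcr6: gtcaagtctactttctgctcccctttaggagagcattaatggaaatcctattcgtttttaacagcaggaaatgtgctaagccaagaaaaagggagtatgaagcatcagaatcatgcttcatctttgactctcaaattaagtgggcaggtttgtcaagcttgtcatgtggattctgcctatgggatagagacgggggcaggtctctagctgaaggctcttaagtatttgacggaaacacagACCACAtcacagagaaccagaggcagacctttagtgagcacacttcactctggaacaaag
Cxcr3: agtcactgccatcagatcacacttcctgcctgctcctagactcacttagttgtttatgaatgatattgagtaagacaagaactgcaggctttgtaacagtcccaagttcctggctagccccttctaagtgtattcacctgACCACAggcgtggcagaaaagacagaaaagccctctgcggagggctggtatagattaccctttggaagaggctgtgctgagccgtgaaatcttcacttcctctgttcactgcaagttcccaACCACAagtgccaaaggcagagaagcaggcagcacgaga
Ccl3: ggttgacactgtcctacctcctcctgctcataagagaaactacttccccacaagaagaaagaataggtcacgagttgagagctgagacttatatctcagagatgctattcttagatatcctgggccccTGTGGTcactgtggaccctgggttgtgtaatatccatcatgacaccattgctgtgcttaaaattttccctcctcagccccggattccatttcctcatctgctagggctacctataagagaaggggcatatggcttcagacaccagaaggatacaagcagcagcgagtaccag
Ccl1: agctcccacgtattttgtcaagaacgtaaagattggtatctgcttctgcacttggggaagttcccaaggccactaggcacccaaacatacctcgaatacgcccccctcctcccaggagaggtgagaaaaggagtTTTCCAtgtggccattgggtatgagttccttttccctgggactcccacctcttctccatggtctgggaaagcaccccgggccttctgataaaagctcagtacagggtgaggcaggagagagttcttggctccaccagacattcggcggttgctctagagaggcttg

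RUNX and NFAT proteins are transcription factors that are active in T cells. Cxcr3 held the RUNX letters at 2 places, and Cx3cr1, Cxcr6 and Ccl3 held them at 1. Of the 57 member symbols 41 matched a RefSeq promoter. The RUNX letters lay in 4 of the 10 matched members that were higher in allogeneic WT (Ccl3, Cx3cr1, Cxcr3 and Cxcr6), in 26.8% of all matched members and in 16.8% of the 32851 promoters of that table. The NFAT letters lay in 4 of those 10 (Ccl1, Ccl17, Ccr2 and Cxcr6), in 29.3% of matched members and in 21.4% of all promoters. The NF-kB letters GGG, any 2 bases and TTTCC, or GGAAA, any 2 bases and CCC on the other strand, lay in 0 of the 10, in 6 of 41 members (Ccl20, Ccl9, Ccr3, Cxcl1, Cxcl2 and Cxcl3) and in 1.63% of all promoters. The 10 are among 24 tested members with a matched promoter. Of these 24, 33.3% held the RUNX letters, 41.7% the NFAT letters and 12.5% the NF-kB letters. The 4 of 10 with NFAT letters are thus near the share of tested members. Both strands were searched, and the TTTCC end of the NF-kB letters can overlap the NFAT letters. Binding was not measured, the motifs were chosen after the values were seen, and these matches are descriptions of letters only.

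Receptor transcripts formed different mixtures in the 2 transplant types. Per kilobase of exon, which allows genes of unequal length to be compared, Ccr7 was the highest receptor in syngeneic WT at 94.3 ± 21.2 CPM per kb, ahead of Cxcr4 at 60.4 ± 4.83 and Cxcr3 at 57.9 ± 8.43 (SD, n = 3). Cxcr4 and Cxcr3 differed there by less than their spread. Cxcr6 (13.8 ± 0.219), Ccr2 (8.77 ± 1.21), Cxcr5 (7.44 ± 0.949) and Ccr4 (5.78 ± 0.563) followed. Allogeneic WT libraries had Cxcr3 at 115 ± 4.66 and Cxcr6 at 111 ± 14.0 CPM per kb, which differed by less than their spread, then Cxcr4 at 41.0 ± 5.15, Ccr2 at 19.1 ± 2.94 and Cx3cr1 at 12.6 ± 2.19. Ccr7 made up 35.4% ± 4.91 of the summed receptor level per kb in WT and 28.8% ± 3.94 in KO after syngeneic transplantation, and 1.81% ± 0.371 in WT and 1.06% ± 0.317 in KO after allogeneic transplantation. The share of Cxcr6 ran the other way, at 5.24% ± 0.353, 6.46% ± 0.800, 32.1% ± 1.77 and 35.1% ± 6.56 in the same order. Cxcr3 took 21.8% ± 1.87 in syngeneic WT and 31.8% ± 1.68 in syngeneic KO, and 33.5% ± 1.18 and 31.5% ± 2.22 in the allogeneic groups.

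**Figure D1:**
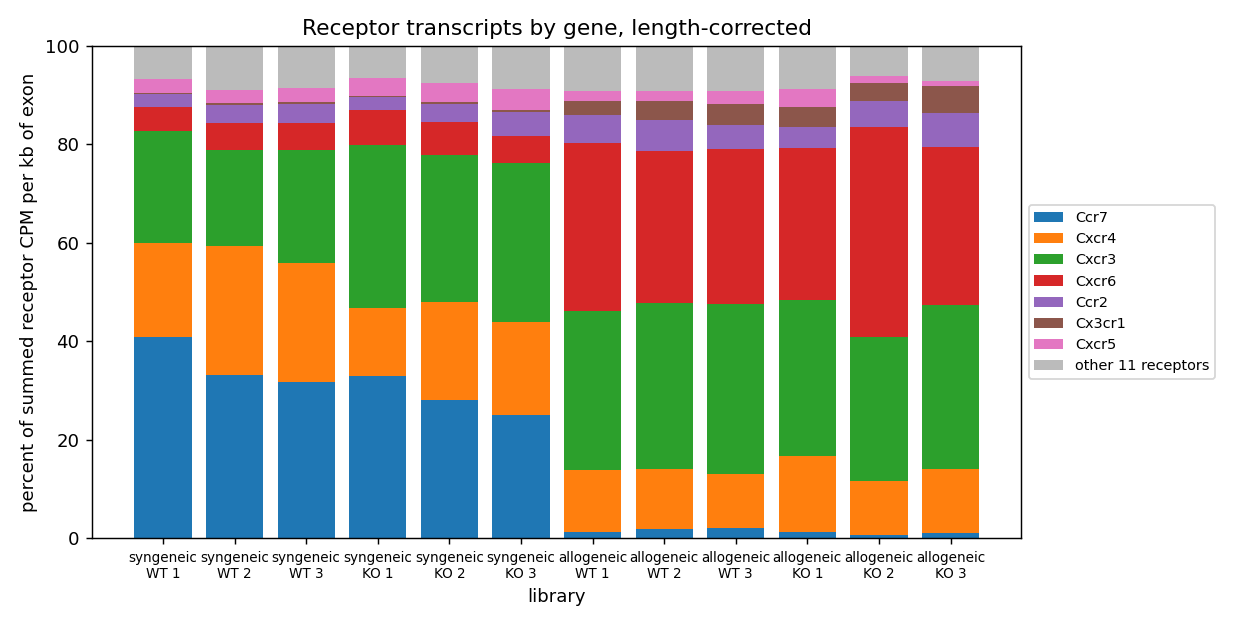
Share of 7 receptor genes, and of all others together, in the summed receptor level (CPM per kb of exon, in percent) in each of the 12 libraries, as stacked bars that start at 0. Ccr7 takes 25.2 to 41.0% in the 6 syngeneic libraries and 0.760 to 2.07% in the 6 allogeneic ones, where Cxcr6 takes 30.7 to 42.7%.

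Summed over all 18 receptor rows, the level was 618 ± 38.6 CPM in WT and 654 ± 99.7 in KO after syngeneic transplantation, and 878 ± 70.6 in WT and 1002 ± 229 in KO after allogeneic transplantation. The ligand rows summed to 155 ± 7.31, 247 ± 78.9, 305 ± 36.9 and 394 ± 165 CPM in the same order. Ccl5 alone made up 74.9% ± 4.07 of the ligand level per kb in WT and 68.7% ± 4.03 in KO after syngeneic transplantation, and 65.0% ± 6.80 in WT and 68.6% ± 10.4 in KO after allogeneic transplantation. These sums are descriptions without a test.

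The comparison of allogeneic with syngeneic recipients asks how the T cells differed when the recipient's tissue antigens were foreign. In WT cells 14 of 32 tested members passed the test (edgeR adjusted p under 0.05 over all genes), 11 higher and 3 lower in allogeneic libraries. Among all 18447 genes 16.4% were called higher and 15.9% lower. In KO cells 13 members passed, 11 higher and 2 lower, against 13.2% and 11.2% of all genes. The median log2 fold change of the tested members was 0.22 in WT and 0.89 in KO cells, beside −0.03 and −0.02 over all tested genes. The 2 comparisons share no library. Log2 fold changes are given with their SE throughout.

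Receptors of lymphoid homing were led by Ccr7 (ENSMUSG00000037944, GRCm38 chr11:99144196-99155077, minus strand), the receptor for the lymph node chemokines CCL19 and CCL21. Ccr7 was measured at 235, 164 and 160.4 CPM in the syngeneic WT libraries and at 218, 144 and 118 CPM in the syngeneic KO libraries, against 10.2, 12.7 and 13.7 CPM in those of allogeneic WT and 9.15, 7.66 and 6.96 CPM in those of allogeneic KO. Every allogeneic library lay far below every syngeneic one. Ccr7 was 15.3-fold lower in allogeneic WT (log2 fold change −3.94 ± 0.25, edgeR adjusted p = 3.14e-07) and 20.2-fold lower in allogeneic KO (−4.34 ± 0.25, edgeR adjusted p = 2.42e-07). The WT libraries held Cxcr4 at 99.9, 117 and 111 CPM after syngeneic and 84.3, 71.7 and 66.2 CPM after allogeneic transplantation, and the KO libraries at 83.6, 92.7 and 80.0 and 91.9, 101 and 80.8 CPM. Cxcr4 is the receptor for the marrow and stromal chemokine CXCL12. In WT it fell in allogeneic libraries without overlap (−0.56 ± 0.12, edgeR adjusted p = 0.00401). In KO the libraries of both transplant types overlapped and the difference did not pass (0.10 ± 0.12, edgeR adjusted p = 0.608). For Cxcr5 the levels were 28.2, 22.0 and 24.2 CPM (syngeneic WT), 41.9, 33.4 and 34.2 CPM (syngeneic KO), 26.3, 21.9 and 28.6 CPM (allogeneic WT) and 41.5, 21.2 and 12.4 CPM (allogeneic KO). This receptor draws B cells and follicular helper T cells into follicles. Its groups overlapped in both comparisons (0.05 ± 0.32, edgeR adjusted p = 0.927 in WT and −0.55 ± 0.32, edgeR adjusted p = 0.238 in KO). In KO the fall of Cxcr5 passed without replicate 1 of allogeneic KO (edgeR adjusted p = 0.00512). B cell markers summed to 535 to 1090 CPM in WT and 498 to 2764 in KO after syngeneic transplantation, and 1237 to 1852 in WT and 469 to 3248 in KO after allogeneic transplantation, with 0 of 10 markers higher and 3 lower in allogeneic WT and 3 higher and 0 lower in allogeneic KO, and their part in Cxcr5 was not tested.

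Receptors of inflamed tissue on T cells rose in 5 of 8 cases in WT and none fell, beside 16.4% of all genes higher and 15.9% lower. In KO 4 of the 8 rose and Ccr4 fell, beside 13.2% of all genes higher and 11.2% lower. Cx3cr1 (ENSMUSG00000052336, GRCm38 chr9:119901616-120069879, minus strand), the receptor for fractalkine, which marks cytotoxic effector T cells and also monocytes, had the largest rise. Cx3cr1 had syngeneic levels of 3.27, 4.30 and 4.09 CPM in WT and 3.26, 3.76 and 3.77 CPM in KO, and allogeneic levels of 46.0, 58.5 and 65.5 CPM in WT and 58.7, 85.5 and 85.0 CPM in KO. The lowest allogeneic value exceeded the highest syngeneic value in both genotypes. Cx3cr1 was 14.6-fold higher in WT (3.87 ± 0.19, edgeR adjusted p = 3.94e-08) and 21.2-fold higher in KO (4.41 ± 0.20, edgeR adjusted p = 4.65e-08). Cxcr6 was measured at 27.0, 26.2 and 26.8 CPM in the syngeneic WT libraries and at 45.5, 33.9 and 25.3 CPM in the syngeneic KO libraries, against 245, 194 and 202 CPM in those of allogeneic WT and 197, 419.9 and 213 CPM in those of allogeneic KO. Cxcr6 (ENSMUSG00000048521, GRCm38 chr9:123806475-123811760, plus strand) binds CXCL16 and is a receptor of liver and tissue-resident T cells. The groups did not overlap, and Cxcr6 was 8.01-fold higher in WT (3.00 ± 0.29, edgeR adjusted p = 9.36e-06) and 7.93-fold higher in KO (2.99 ± 0.29, edgeR adjusted p = 1.34e-05). Replicate 2 of allogeneic KO had about the level of its other 2 libraries together.

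Cxcr3 (ENSMUSG00000050232, GRCm38 chrX:101731535-101734269, minus strand) is the receptor for the interferon-induced chemokines CXCL9, CXCL10 and CXCL11. The WT libraries held Cxcr3 at 114, 84.9 and 102 CPM after syngeneic and 207, 191 and 199 CPM after allogeneic transplantation, and the KO libraries at 192, 134 and 132 and 183, 257 and 199.5 CPM. In WT every allogeneic library was above every syngeneic one, 1.99-fold in the fit (0.99 ± 0.17, edgeR adjusted p = 0.000804). In KO the highest syngeneic library reached into the allogeneic range, and the difference did not pass (0.48 ± 0.17, edgeR adjusted p = 0.0572), whereas it passed with RLE scaling (edgeR adjusted p = 0.0474) and with DESeq2 (adjusted p = 0.0285). For Ccr2 the levels were 50.7, 60.2 and 67.0 CPM (syngeneic WT), 61.1, 62.2 and 77.9 CPM (syngeneic KO), 143, 139 and 107 CPM (allogeneic WT) and 98.6, 185 and 159.6 CPM (allogeneic KO). Ccr2 binds CCL2 and is carried by monocytes and effector T cells. It rose without overlap in WT (1.13 ± 0.21, edgeR adjusted p = 0.00131) and KO (1.14 ± 0.21, edgeR adjusted p = 0.00162).

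Ccr8 and Ccr4 are receptors of T helper cells, regulatory T cells and skin homing cells, and they went opposite ways. Ccr8 had syngeneic levels of 1.63, 2.57 and 1.70 CPM in WT and 2.51, 1.70 and 2.52 CPM in KO, and allogeneic levels of 8.07, 7.39 and 10.6 CPM in WT and 9.69, 7.19 and 3.79 CPM in KO. It rose in WT (2.14 ± 0.33, edgeR adjusted p = 0.000319) and in KO (1.62 ± 0.32, edgeR adjusted p = 0.0029), with no overlap. Ccr4 was measured at 18.6, 19.1 and 15.9 CPM in the syngeneic WT libraries and at 20.2, 16.0 and 21.2 CPM in the syngeneic KO libraries, against 13.7, 10.7 and 8.55 CPM in those of allogeneic WT and 12.5, 7.77 and 3.85 CPM in those of allogeneic KO. All allogeneic libraries were lower than all syngeneic ones in both genotypes. The fall of Ccr4 passed in KO (−1.26 ± 0.33, edgeR adjusted p = 0.0139) and not in WT (−0.70 ± 0.32, edgeR adjusted p = 0.113), and without replicate 2 of allogeneic KO the edgeR adjusted p in KO was 0.051. With only the 2 groups fitted it was 0.00573 in WT and 0.0504 in KO, and in WT it was 0.00661 with the block within them. The difference between the genotypes did not pass (interaction −0.56 ± 0.45, edgeR adjusted p = 1).

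Of the mucosal and skin homing receptors, Ccr9 binds CCL25 and directs T cells to the small intestine, and Ccr10 binds the skin and mucosal chemokines CCL27 and CCL28. The WT libraries held Ccr9 at 16.3, 14.8 and 11.8 CPM after syngeneic and 83.5, 58.9 and 34.1 CPM after allogeneic transplantation, and the KO libraries at 18.0, 12.8 and 10.1 and 46.9, 46.1 and 25.6 CPM. The allogeneic libraries varied widely but all exceeded the syngeneic ones, and Ccr9 rose in WT (2.04 ± 0.34, edgeR adjusted p = 0.000738) and KO (1.54 ± 0.33, edgeR adjusted p = 0.00555). Genes on the opposite strand cover 18.8% of the exon bases of Ccr9, and since no source used here gives a strand setting for the counts, reads of these genes cannot be told apart. For Ccr10 the levels were 0.731, 1.20 and 0.698 CPM (syngeneic WT), 0.744, 0.344 and 0.873 CPM (syngeneic KO), 0.260, 0.173 and 0.338 CPM (allogeneic WT) and 0.235, 0.417 and 0.289 CPM (allogeneic KO). Levels were low in all groups, and Ccr10 fell in WT (−1.78 ± 0.43, edgeR adjusted p = 0.00664) and did not pass in KO (−1.04 ± 0.43, edgeR adjusted p = 0.0949). Without replicate 2 of syngeneic KO it passed in KO (edgeR adjusted p = 0.044).

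**Figure D2:**
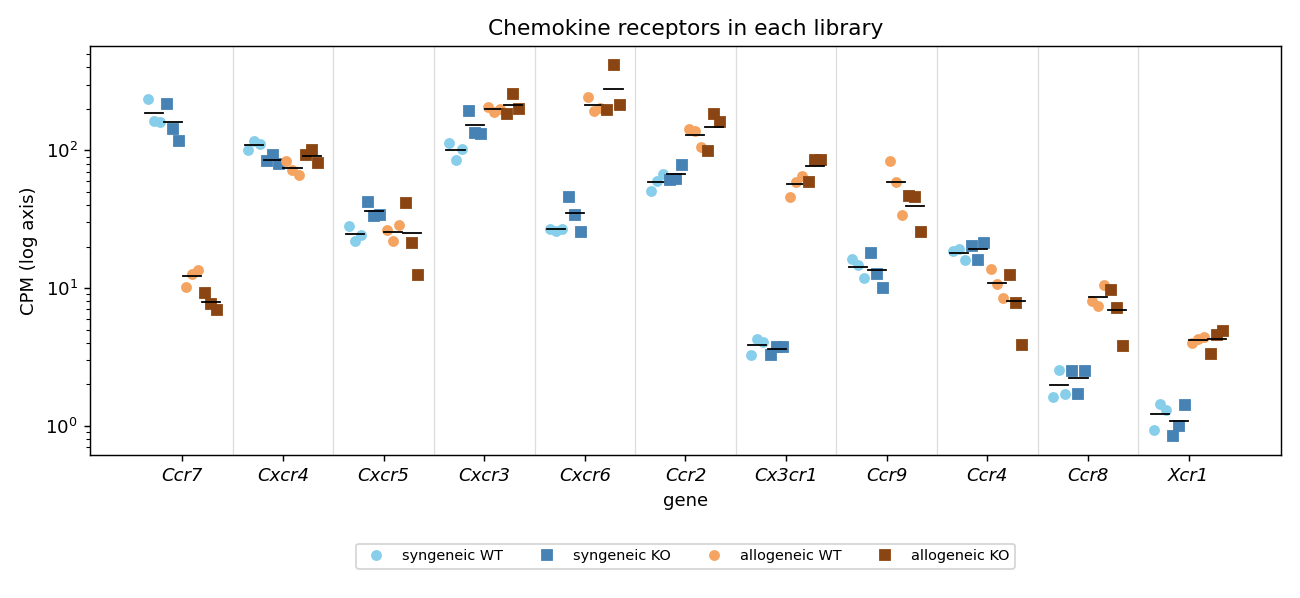
CPM (log axis) of 11 receptor genes in each library, with points for libraries, colours and shapes for the 4 groups and bars for group means of 3 libraries. Ccr7 lies at 118 to 235 CPM in syngeneic and 6.96 to 13.7 in allogeneic libraries, and Cx3cr1 at 3.26 to 4.30 and 46.0 to 85.5.

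The receptors known mainly from other cells were Xcr1, on cross-presenting dendritic cells, and Ccr1 and Cxcr2, on monocytes and neutrophils. Xcr1 had syngeneic levels of 0.934, 1.44 and 1.31 CPM in WT and 0.844, 0.997 and 1.41 CPM in KO, and allogeneic levels of 4.01, 4.26 and 4.39 CPM in WT and 3.31, 4.55 and 4.88 CPM in KO. It rose without overlap in both genotypes, 3.44-fold in WT (1.78 ± 0.26, edgeR adjusted p = 0.000222) and 3.92-fold in KO (1.97 ± 0.26, edgeR adjusted p = 0.000147). Ccr1 was measured at 1.26, 4.30 and 3.88 CPM in the syngeneic WT libraries and at 0.181, 0.498 and 0.992 CPM in the syngeneic KO libraries, against 6.04, 4.97 and 5.39 CPM in those of allogeneic WT and 2.77, 5.60 and 3.54 CPM in those of allogeneic KO. In KO every allogeneic library exceeded every syngeneic one and the rise passed (2.83 ± 0.56, edgeR adjusted p = 0.00284), and in WT the groups also did not overlap but the difference did not pass (0.80 ± 0.50, edgeR adjusted p = 0.247). The WT libraries held Cxcr2 at 4.28, 7.43 and 9.13 CPM after syngeneic and 5.80, 8.48 and 9.92 CPM after allogeneic transplantation, and the KO libraries at 1.37, 2.32 and 3.59 and 1.03, 3.27 and 5.32 CPM. The groups overlapped in both genotypes (0.22 ± 0.50, edgeR adjusted p = 0.766 in WT and 0.41 ± 0.51, edgeR adjusted p = 0.589 in KO). Myeloid markers summed to 260 to 802 CPM in WT and 40.8 to 402 in KO after syngeneic transplantation, and 502 to 704 in WT and 328 to 554 in KO after allogeneic transplantation. Of the 16 myeloid markers 2 rose and 7 fell in allogeneic WT against syngeneic WT, 3 rose and 0 fell in KO, and none was at 0 in all libraries of a group. Mean levels of Csf1r, the macrophage growth factor receptor, were 12.8 CPM in WT and 6.08 in KO after syngeneic, and 1.74 and 1.79 after allogeneic transplantation, and those of Itgax, which dendritic cells and activated T cells express, were 11.9, 12.5, 177 and 187. The part of myeloid cells in the values of Cx3cr1, Xcr1, Ccr1, Ccr2 and Cxcr2 was not tested.

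Ligands rose in 4 of 15 tested cases in each genotype, beside 16.4% of all genes called higher in WT and 13.2% in KO. None fell, beside 15.9% and 11.2% of all genes called lower. Those that rose were all inflammatory CC chemokines, as were 9 of the 15 tested ligands. They include Ccl17 in WT and Ccl24 in KO, whose few counts are given below. Ccl3 (ENSMUSG00000000982, GRCm38 chr11:83647844-83649355, minus strand) and Ccl4, neighbours on chromosome 11 that encode inflammatory chemokines of effector T cells and macrophages, lay close in level. For Ccl3 the levels were 4.12, 5.12 and 7.38 CPM (syngeneic WT), 15.5, 22.2 and 7.10 CPM (syngeneic KO), 38.3, 30.4 and 35.4 CPM (allogeneic WT) and 32.6, 45.8 and 31.0 CPM (allogeneic KO). No allogeneic library overlapped a syngeneic one, and Ccl3 was 6.26-fold higher in WT (2.65 ± 0.36, edgeR adjusted p = 0.000162) and 2.44-fold higher in KO (1.29 ± 0.34, edgeR adjusted p = 0.0162). Without replicate 2 of allogeneic KO the latter did not pass (edgeR adjusted p = 0.0589). Ccl4 had syngeneic levels of 5.21, 4.50 and 6.76 CPM in WT and 22.7, 12.5 and 5.85 CPM in KO, and allogeneic levels of 32.4, 23.6 and 25.4 CPM in WT and 18.7, 44.3 and 22.3 CPM in KO. It rose in WT (2.30 ± 0.46, edgeR adjusted p = 0.00286). In KO the groups overlapped and the difference did not pass (1.06 ± 0.44, edgeR adjusted p = 0.103). It passed there with DESeq2 (adjusted p = 0.0298) and without replicate 1 of syngeneic KO (edgeR adjusted p = 0.0117). Ccl5 was measured at 129, 106 and 114 CPM in the syngeneic WT libraries and at 231, 146 and 144 CPM in the syngeneic KO libraries, against 215, 233 and 165 CPM in those of allogeneic WT and 127, 395 and 338 CPM in those of allogeneic KO. Ccl5, a chemokine stored by effector and memory CD8 T cells, was higher in every allogeneic than in every syngeneic WT library, but its difference passed in neither WT (0.81 ± 0.34, edgeR adjusted p = 0.0883) nor KO (0.72 ± 0.34, edgeR adjusted p = 0.142). It passed in WT with only the 2 groups fitted (edgeR adjusted p = 0.000729), with the block within them (0.0048) and with DESeq2 (0.0414), and in KO without replicate 1 of allogeneic KO (0.00447).

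Ccl1 (ENSMUSG00000020702, GRCm38 chr11:82176657-82305690, minus strand), the ligand of CCR8, was the ligand with the smallest p in WT. This span comes from another annotation than the RefSeq promoter shown above. It reaches far upstream of that promoter, and the span of Cx3cr1 also reaches upstream of its own. The WT libraries held Ccl1 at 1.40, 1.73 and 2.03 CPM after syngeneic and 27.6, 10.6 and 17.7 CPM after allogeneic transplantation, and the KO libraries at 5.11, 5.81 and 5.22 and 21.8, 23.7 and 11.9 CPM. The groups did not overlap, with a 10.8-fold rise in WT (3.43 ± 0.35, edgeR adjusted p = 1.40e-05) and a 3.55-fold rise in KO (1.83 ± 0.33, edgeR adjusted p = 0.00138). For Ccl6 the levels were 0.840, 2.45 and 2.13 CPM (syngeneic WT), 0.141, 0.344 and 0.892 CPM (syngeneic KO), 7.15, 3.55 and 5.26 CPM (allogeneic WT) and 1.22, 4.50 and 4.79 CPM (allogeneic KO). Ccl6 is a myeloid chemokine. Its allogeneic libraries exceeded the syngeneic ones in both genotypes, and the rise passed in KO (2.94 ± 0.67, edgeR adjusted p = 0.00721) and not in WT (1.56 ± 0.62, edgeR adjusted p = 0.0718). In WT it passed with only the 2 groups fitted (edgeR adjusted p = 0.0172), with the block over all 12 libraries (0.0304) and with DESeq2 (0.0258), and the difference between the genotypes did not pass (interaction 1.38 ± 0.88, edgeR adjusted p = 1). Xcl1 had syngeneic levels of 8.65, 8.92 and 9.73 CPM in WT and 17.6, 14.6 and 15.7 CPM in KO, and allogeneic levels of 7.81, 2.98 and 9.50 CPM in WT and 7.93, 14.5 and 7.94 CPM in KO. Xcl1, the ligand of XCR1 that activated CD8 T cells and NK cells secrete, did not pass in either genotype (−0.43 ± 0.35, edgeR adjusted p = 0.361 in WT and −0.66 ± 0.35, edgeR adjusted p = 0.185 in KO). Opposite strand genes cover 18.7% of its exon bases. NK cell markers, genes of another source of Xcl1, Ccl3, Ccl4 and Ccl5, summed to 163 to 195 CPM in WT and 182 to 204 in KO after syngeneic transplantation, and 107 to 132 in WT and 129 to 193 in KO after allogeneic transplantation, with Klra8 at 0 in all allogeneic WT libraries. Of these 6 markers 2 were higher and 3 lower in allogeneic libraries in each genotype. The cells were sorted for CD3 and CD45.2, and the part of NK cells was not tested. Cxcl10 was measured at 4.05, 4.57 and 4.96 CPM in the syngeneic WT libraries and at 41.1, 4.86 and 3.55 CPM in the syngeneic KO libraries, against 2.12, 1.19 and 1.34 CPM in those of allogeneic WT and 1.24, 5.95 and 0.883 CPM in those of allogeneic KO. Cxcl10, an interferon-induced ligand of CXCR3, was high in replicate 1 of syngeneic KO alone, and its differences did not pass (−1.55 ± 0.98, edgeR adjusted p = 0.253 in WT and −2.61 ± 0.99, edgeR adjusted p = 0.0849 in KO, where without that library it was −0.59 ± 0.64, edgeR adjusted p = 0.505). In WT Cxcl10 passed with only the 2 groups fitted (edgeR adjusted p = 0.000539) and with the block within them (0.00484). In KO it passed with DESeq2 (0.0256), and in edgeR without replicate 2 of allogeneic KO (0.0398) or replicate 3 of syngeneic KO (0.0489).

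Of the ligands with fewest counts, Ccl17 and Ccl24 passed the filter on a few counts per library, and they are among the members counted above as higher in WT (Ccl17) or KO (Ccl24). Each passed the filter only through the groups where it was high, so these calls do not support the count. Ccl17, a ligand of CCR4, had 0, 1 and 2 counts in syngeneic WT, 2, 3 and 4 in syngeneic KO, 20, 25 and 3 in allogeneic WT and 4, 17 and 9 in allogeneic KO libraries. Its WT libraries differed by 13.5-fold in the scaled sums of 48 against 3 counts, with an exact 95% interval of 4.35 to 67.7 for counting error only (3.56 ± 0.90, edgeR adjusted p = 0.00911), and it did not pass the filter, and so had no test, when only the 2 WT groups were fitted. Ccl24, an eotaxin, had 0 counts in all syngeneic KO libraries and 20 over the 3 allogeneic KO libraries, so that it was at least 6.15-fold higher there, taking 3 counts over the group as the limit that 0 allows (edgeR adjusted p = 0.00851). Cxcl2, which attracts neutrophils, had allogeneic levels of 0.538, 1.46 and 0.693 CPM in WT and 0, 0.834 and 0.535 CPM in KO, and neither difference from the syngeneic libraries passed (−1.22 ± 0.84, edgeR adjusted p = 0.29 in WT and 2.35 ± 1.06, edgeR adjusted p = 0.129 in KO), although in WT it passed with the block within the 2 groups (edgeR adjusted p = 0.0107). In KO Cxcl2 passed with DESeq2 (adjusted p = 0.0496) and without replicate 1 of allogeneic KO (edgeR adjusted p = 0.0212). Counts of PCR copies are not independent molecules, so the intervals and limits given for Ccl17 and Ccl24 do not cover other error.

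**Figure D3:**
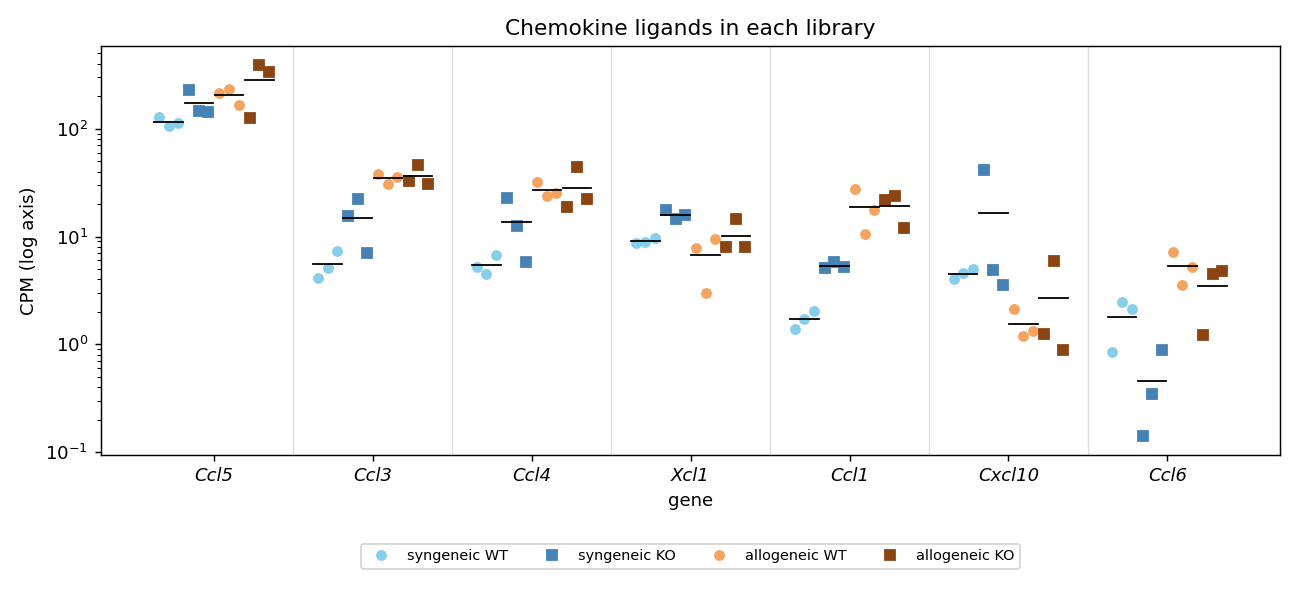
CPM (log axis) of 7 ligand genes in each library, with points for libraries, colours and shapes for the 4 groups and bars for group means of 3 libraries. Ccl1 lies at 1.40 to 2.03 CPM in syngeneic WT, 5.11 to 5.81 in syngeneic KO and 10.6 to 27.6 in the allogeneic libraries, and Cxcl10 reaches 41.1 CPM in 1 syngeneic KO library.

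**Figure D4:**
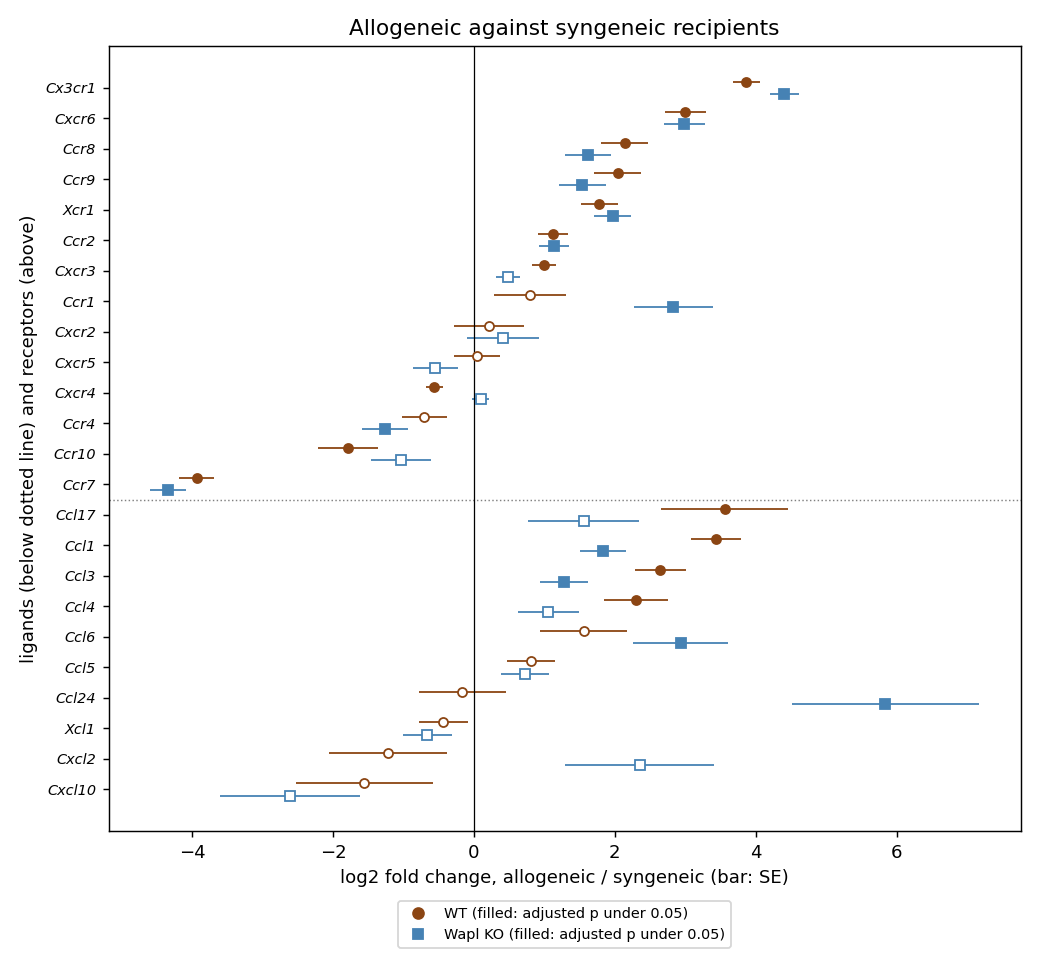
Log2 fold change of allogeneic against syngeneic libraries for 24 members, with circles for WT, squares for KO, bars for the SE and filled symbols for an edgeR adjusted p under 0.05. Ccr7 lies near −4 in both genotypes, while Cx3cr1 (3.87 in WT and 4.41 in KO), Cxcr6, Ccr8, Ccr9, Xcr1, Ccr2, Ccl1 and Ccl3 are filled to the right in both.

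The comparison of KO with WT cells asks how T cells of Wapl KO and WT donors differed. In syngeneic recipients 5 of 32 tested members passed, 2 higher and 3 lower in KO, against 0.743% of all genes called higher and 2.63% called lower. Of the 3 lower, Ccl24 passed the filter on low counts only through the groups where it was high, so its call does not support the count. The median of the tested members was 0.02, beside 0.06 over all tested genes. Deviations from the group means correlated at 0.170 to 0.545 between same-numbered libraries of syngeneic WT and KO. Replicate 2 of WT correlated more with replicate 3 of KO (0.363) than with its own number (0.170). The labels state no pairing, and it was taken from these same libraries. The fit within these 2 groups with the replicate number as a block is therefore an alternative and no separate support. With the block, which leaves 2 residual degrees of freedom, 11 members passed, beside 7.29% of all genes. The ligands Ccl1 and Ccl3 rose in KO. Ccl1 was 3.13-fold higher (1.65 ± 0.34, edgeR adjusted p = 0.0175), with KO libraries of 5.11, 5.81 and 5.22 CPM all above the WT libraries of 1.40, 1.73 and 2.03. Ccl3 was 2.70-fold higher (1.43 ± 0.35, edgeR adjusted p = 0.0443), at 15.5, 22.2 and 7.10 against 4.12, 5.12 and 7.38 CPM, and its ranges overlapped. With the block Ccl3 did not pass (edgeR adjusted p = 0.35).

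The genes that fell in syngeneic KO were Ccr1, Cxcl2 and Ccl24. Ccr1 was 5.63-fold lower (−2.49 ± 0.55, edgeR adjusted p = 0.0275), at 0.181, 0.498 and 0.992 CPM against 1.26, 4.30 and 3.88 in WT. Cxcl2, a neutrophil-attracting ligand of CXCR2, was 22.9-fold lower (−4.52 ± 1.06, edgeR adjusted p = 0.0387), at 0.181, 0.0172 and 0.0793 against 0.949, 3.49 and 1.89 CPM. Neither overlapped between the groups. Ccl24 had 26 counts over the WT and 0 over the KO libraries, at least 7.57-fold lower (edgeR adjusted p = 0.0256), and was not tested with the block because it did not pass the filter within these groups. Genes of other cells moved with these 3. Of the 16 myeloid markers 7 fell in syngeneic KO and none rose, and mean S100a9, a neutrophil and monocyte protein, was 222 CPM in WT and 5.74 in KO. Red cell precursor markers summed to 2125 to 4851 CPM in syngeneic WT and 29.4 to 110 in syngeneic KO, and 7 of 9 fell. The part of these cells in the falls of Ccr1, Cxcl2 and Ccl24 was not tested.

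With the block 8 further members passed in the syngeneic comparison. With a block over all 12 libraries only Cxcr2 of these 8 passed, and 5 members were called in all. Cxcr2 stood at 1.37, 2.32 and 3.59 CPM in KO against 4.28, 7.43 and 9.13 in WT (−1.52 ± 0.51, edgeR adjusted p = 0.184, and 0.000549 with the block), and Ccl6 at 0.141, 0.344 and 0.892 against 0.840, 2.45 and 2.13 (−1.97 ± 0.66, edgeR adjusted p = 0.178, and 0.0061 with the block). Both were lower in KO, as was Cxcl9, which was singled out after its values were seen. The T cell genes among the 8 were Cxcr3, Cxcr4, Cxcr5, Ccl5 and Xcl1. Cxcr3 was at 192, 134 and 132 CPM in KO and 114, 84.9 and 102 in WT (0.61 ± 0.17, edgeR adjusted p = 0.0856, and 0.00797 with the block). Xcl1 was at 17.6, 14.6 and 15.7 and 8.65, 8.92 and 9.73 (0.81 ± 0.35, edgeR adjusted p = 0.319, and 0.00643 with the block). Cxcr4 was lower in every KO library, at 83.6, 92.7 and 80.0 and 99.9, 117 and 111 (−0.35 ± 0.12, edgeR adjusted p = 0.193, and 0.0285 with the block). For Cxcr5 (0.56 ± 0.32, edgeR adjusted p = 0.459) and Ccl5 (0.58 ± 0.34, edgeR adjusted p = 0.469) all KO libraries exceeded all WT libraries, and the adjusted p with the block was 0.0129 and 0.0211. The count of members that passed the fit without the block was 0 when replicate 2 or 3 of syngeneic WT or replicate 2 of syngeneic KO was left out. It was 1 without replicate 1 of syngeneic KO, where Ccl1 remained, and 4 without replicate 1 of syngeneic WT, where Ccl1 and Ccl3 no longer passed and Ccr3 did. It was also 4 without replicate 3 of syngeneic KO, where Ccl24 and Cxcl2 no longer passed and Ccl4 did. DESeq2 called 9 members, beside 5.52% of all genes, adding Ccl4 (adjusted p = 0.0299), Ccl6 (0.0228), Cxcr2 (0.0354) and Cxcr3 (0.0278).

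In allogeneic recipients 0 of 32 members passed in KO against WT with edgeR, and 0 with DESeq2, which called 0.417% of all genes. The unadjusted p was under 0.05 for 5 members (15.6%, beside 4.18% of all genes). Among all genes 0.0434% were called higher and 0.0108% lower. The median of the tested members was 0.07, beside 0.03 over all genes. Ccr7 was lower in every KO library, at 9.15, 7.66 and 6.96 CPM against 10.2, 12.7 and 13.7 in WT (log2 fold change −0.62 ± 0.23, 95% interval −1.12 to −0.13, edgeR adjusted p = 0.963). Cxcr2 was also lower without overlap, at 1.03, 3.27 and 5.32 against 5.80, 8.48 and 9.92 CPM (−1.32 ± 0.51, edgeR adjusted p = 0.963). Cx3cr1 (0.43 ± 0.17, edgeR adjusted p = 0.963) and Cxcr4 (0.30 ± 0.12, edgeR adjusted p = 0.963) also had an unadjusted p under 0.05, with positive values. For Cxcr6 the interval of the log2 fold change was −0.20 to 0.95, and for Cxcr3 −0.27 to 0.47. For Ccl3, Ccl4 and Ccl5 it was −0.65 to 0.80, −0.88 to 1.01 and −0.25 to 1.23.

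**Figure D5:**
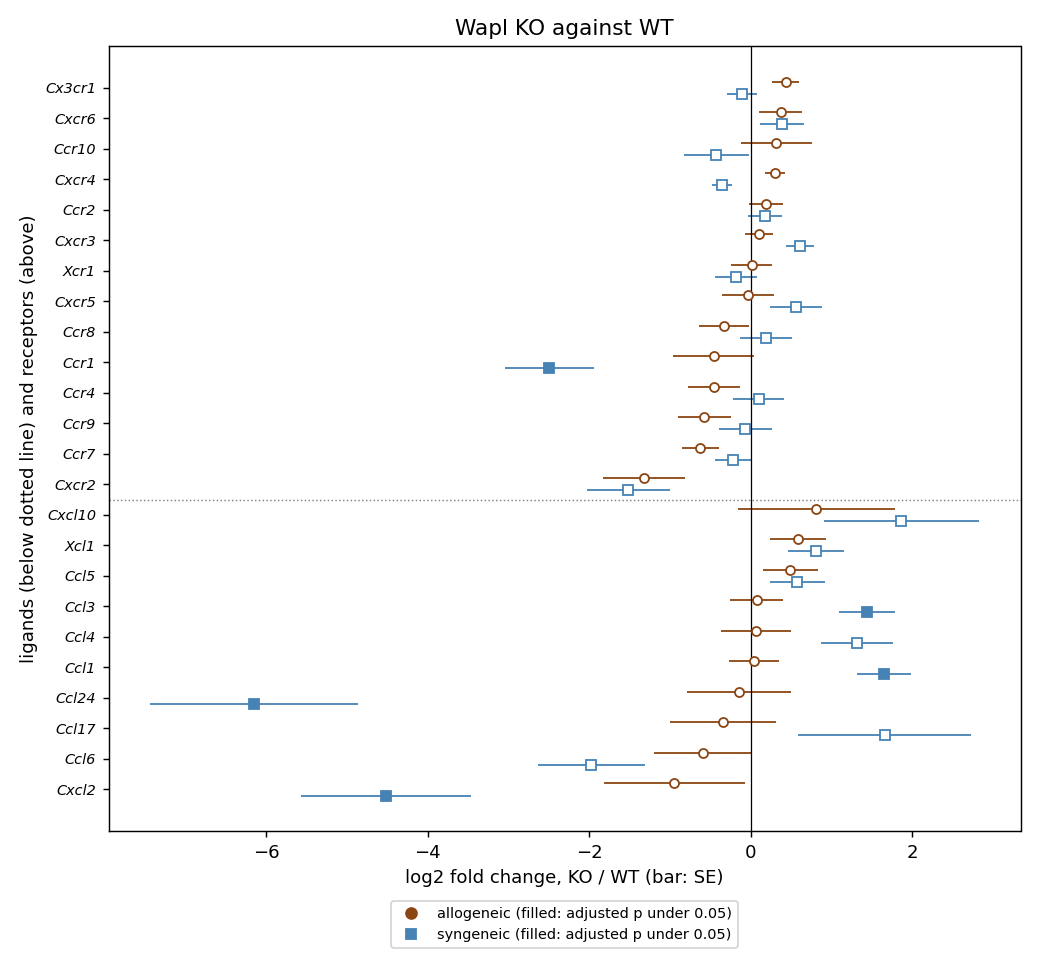
Log2 fold change of KO against WT libraries for 24 members, with circles for allogeneic and squares for syngeneic recipients, bars for the SE and filled symbols for an edgeR adjusted p under 0.05. Ccl1 and Ccl3 (filled, right) and Ccr1, Cxcl2 and Ccl24 (filled, left) pass in syngeneic recipients, and no symbol is filled for allogeneic ones.

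The difference between the effects of KO in the 2 transplant types was tested as an interaction. It passed for 0 of 32 members, beside 0.428% of all genes called higher and 0.0488% lower. The unadjusted p was under 0.05 for 8 members (25%, beside 6.2% of all genes). The median of the tested members was 0.03, beside −0.03 over all genes. The smallest p values belonged to Cxcr4 (0.66 ± 0.17, edgeR adjusted p = 0.198), whose value for KO against WT was −0.35 ± 0.12 in syngeneic and 0.30 ± 0.12 in allogeneic recipients, to Ccl24, and to Ccl1 (−1.60 ± 0.46, edgeR adjusted p = 0.256), with 1.65 ± 0.34 and 0.04 ± 0.31. DESeq2 called 2 members, beside 1.59% of all genes, Cxcr4 (adjusted p = 0.0219) and Ccl1 (0.0384). For Ccr1 (2.04 ± 0.74, edgeR adjusted p = 0.512) and Ccl3 (−1.36 ± 0.48, edgeR adjusted p = 0.477), which passed in syngeneic recipients only, the difference between the transplant types did not pass.

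Many members lie in clusters that arose by gene duplication. On chromosome 9, the segment from Ccr9 to Ccr2 (GRCm38 chr9:123678439-124113557) holds 6 receptor genes, Ccr9, Cxcr6, Xcr1, Ccr1, Ccr3 and Ccr2, all of them tested. In it 4 members were higher in allogeneic WT and 5 in allogeneic KO, and none was lower. Among all tested genes 16.4% were called higher and 15.9% lower in WT, and 13.2% and 11.2% in KO. These shares apply to each segment below as well. The 7 other tested genes of the segment included 2 higher and 1 lower in WT, and 2 higher in KO. Cx3cr1 and Ccr8, which lie within chr9:119901616-120094906, were both higher in both genotypes, and of the 4 other tested genes there 1 was higher and 1 lower in each. On chromosome 11, the segment from Ccl5 to Ccl4 (chr11:83525778-83664683) holds 5 tested ligands, of which 2 were higher in WT and 2 in KO. The segment from Ccl2 to Ccl1 (chr11:82035571-82305690) holds 6 members, and Ccl1 was the only one with enough counts for a test. Neighbours within a segment are not independent of each other, and these counts were not tested.

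The other genes of the pathway were taken as a list of receptor signalling, atypical receptors, chemokine processing and lymphoid recirculation, of which 60 of 62 were tested. In allogeneic against syngeneic WT 22 were higher and 9 lower, beside 16.4% and 15.9% of all genes, and in KO 19 were higher and 5 lower, beside 13.2% and 11.2%. Of the phospholipases that act below chemokine receptors, Plcb2 fell (−2.03 ± 0.18, edgeR adjusted p = 3.62e-06 in WT and −1.96 ± 0.18, edgeR adjusted p = 7.36e-06 in KO) and Plcb3 rose (1.61 ± 0.18, edgeR adjusted p = 2.72e-05 in WT and 1.14 ± 0.18, edgeR adjusted p = 0.000541 in KO). Pik3cg, the catalytic subunit of the lipid kinase that receptor-coupled G proteins activate, rose in both genotypes (1.13 ± 0.11, edgeR adjusted p = 8.93e-06 and 1.08 ± 0.11, edgeR adjusted p = 1.72e-05). Arrb1, an arrestin that ends receptor signalling, fell in both genotypes (−2.88 ± 0.27, edgeR adjusted p = 7.10e-06 in WT and −1.42 ± 0.26, edgeR adjusted p = 0.00153 in KO).

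In KO against WT, 1 of 60 pathway genes rose and 2 fell in syngeneic recipients, beside 0.743% and 2.63% of all genes. In allogeneic recipients 0 of 60 passed, beside 0.0434% of all genes higher and 0.0108% lower. These counts are too few to tell apart from those shares. Rgs16, a brake on G protein signalling, rose in syngeneic KO (1.11 ± 0.22, edgeR adjusted p = 0.0143), at 8.44, 10.9 and 6.54 CPM against 3.77, 4.07 and 4.17. Arrb1 fell (−1.76 ± 0.26, edgeR adjusted p = 0.00235), at 40.4, 45.8 and 58.2 against 99.6, 205 and 186. Ackr1, an atypical receptor of red cells and venules that binds chemokines without signalling, also fell (−5.54 ± 0.71, edgeR adjusted p = 0.000955), at 0.0201, 0.0516 and 0.198 CPM against 1.56, 6.04 and 5.11. Arrb1 and Ackr1 moved with the red cell precursor markers, whose sums in the allogeneic groups were 15.7 to 60.9 CPM (WT) and 19.1 to 30.9 CPM (KO), and whose part in them was not tested. Rgs16 did not pass without replicate 2 or 3 of syngeneic WT or replicate 2 of syngeneic KO (edgeR adjusted p = 0.0701, 0.0606 and 0.0767).

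The 26 members that were not tested were low in all groups. No library exceeded 0.337 CPM (Cx3cl1) or 19 counts (Cxcr1) for any of them, and 10 rows were at 0 in all 12 libraries. Among these were Ccl21a, Ccl21b and Ccl21c, ligands of CCR7, and 1 row of Ccl27a with Ccl27b, copies so alike that the authors' counting could have split or dropped their reads. Cxcl12 had 5 counts and Ccl19 10 counts over all 12 libraries. Counts of the stromal ligands of CXCR4 and CCR7 were thus at or near 0 in the sorted cells, with the limit just given for the Ccl21 copies. Cxcr4 was among the highest receptors in all groups, and Ccr7 in the syngeneic groups only. A count of 0 in a library allows up to 3 counts there, for counting error only. Of the tested members, 7 had less than 5 CPM in every group and passed no test in the reported fit. They (Ccr3, Ccr6, Ccl9, Ccl25, Ccl27a, Cxcl9 and Cxcl16) are accounted for by these counts alone.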

How the data were processed

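The authors deposited expected counts, that is estimated counts per gene, of which 94.5 to 95.0% per library were whole numbers. The build GRCm38 and the tools Cuffdiff 2.2.1, Cufflinks, Bowtie2 2.2.1 and TopHat2 2.0.13 are listed in the submitters' processing notes, with no roles. Which tool counted, and the annotation and strand setting, are not given in the sources used here. Per the labels' protocols, 100 ng of RNA was depleted of ribosomal RNA. Of 18 labelled samples 12 matched a column by name. The naive samples and 6 columns with prefixed names were not analysed here.

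Counts were rounded and fitted in edgeR 4.0.16 (R 4.3.3) with TMM scaling, filterByExpr (count minimum 10), a mean per group and a robust quasi-likelihood fit on 12 libraries (8 residual degrees of freedom). Two-sided p values were adjusted by Benjamini-Hochberg over 18447 genes and called under 0.05. CPM used TMM-scaled library sizes. SE is the log2 fold change over the square root of F. Lengths and positions are GENCODE M21 exon unions. The fit was tested on simulated data. Alternatives were DESeq2 1.42.0, RLE scaling, no filter, fewer genes or groups, the replicate block and leaving out each library.

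Values were named for the genes Ccr7, Cxcr3, Cxcr6, Cx3cr1 and Ccl3, for members called in any comparison or reaching a mean of 5 CPM, and for at most 4 called pathway genes a comparison by smallest p. Some genes under this rule are not reported here. Members and lists were chosen with earlier results of these data known. Same-numbered residuals correlated at 0.170 to 0.545 between syngeneic WT and KO, from which the pairing was taken. The labels do not state it.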

Additional observations from a re-analysis of the deposited data

Results flagged for a closer look

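Among the named genes the interaction of KO and transplant type passed for Ackr1, the atypical chemokine receptor of red cells and venules. The effect of KO was higher in allogeneic than in syngeneic recipients by 5.40 ± 0.95 (log2, SE, edgeR adjusted p = 0.032). Ackr1 stood at 1.56, 6.04 and 5.11 CPM in WT and 0.0201, 0.0516 and 0.198 in KO after syngeneic transplantation, and at 0.330, 0.214 and 0.118 in WT and 0.141, 0.217 and 0.231 in KO after allogeneic transplantation, so that the syngeneic WT libraries alone were high. The edgeR adjusted p was 0.0534 with the replicate block over all 12 libraries. The difference did not pass without replicate 2 of syngeneic KO (0.105) or of 8 other single libraries. Red cell precursor markers, of which 7 of 9 passed in the same test, summed to 2125 to 4851 CPM in syngeneic WT and to 15.7 to 110 CPM in the other groups, and their part in Ackr1 was not tested.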

How the results depend on the processing

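No call of a named gene changed direction under any alternative, but calls were not all stable. Over named genes, comparisons and alternatives with a test, a call was lost 48 times and kept 636 times. A call was gained 46 times and stayed absent 1622 times. In syngeneic KO against WT the count of members, 5 in the reported fit, was 9 with DESeq2, 3 without the filter, 3 with only the 2 groups fitted, 11 with the replicate block within them and 0 to 4 leaving out a library, and the count of all genes, 622, was 1018 with DESeq2, 349 with the 2 groups, 1287 with that block and 260 to 742 leaving out a library. For KO in allogeneic recipients all genes numbered 10, 77 with DESeq2, 6 with the 2 groups and 3 to 15 leaving out a library. For allogeneic against syngeneic KO they numbered 4500, 2669 with the 2 groups and 2266 with the block, and members numbered 12 to 18 leaving out a library. The interaction called 88 genes, 293 with DESeq2 and 28 to 242 leaving out a library, and 0 members, 2 with DESeq2. The cause was not tested.

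Same-numbered correlations between the other groups ran from −0.317 to 0.423, and no pair of groups had all 3 over 0.1. Between syngeneic WT and KO all 3 were over 0.1, although replicate 2 of WT correlated more with replicate 3 of KO (0.363) than with its own number (0.170). There the block within the 2 groups gave 0 members for KO in allogeneic recipients, 17 for allogeneic against syngeneic WT and 12 for allogeneic against syngeneic KO. Leaving out ribosomal RNA genes and the rows Gm26917 and Yam1, which held 7.65 to 30.7% of counts, was chosen after seeing the data and gave 4 members in syngeneic KO against WT, without Ccl3 (edgeR adjusted p = 0.0512). The raw totals moved the summed ligand level in syngeneic WT from 155 to 162 CPM. Depth limits the members under 1 CPM, such as Ccl17 and Ccl24.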
